A study of Saccharomyces cerevisiae with 4 samples.

Results

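The alcohol dehydrogenase genes of budding yeast were followed across the 4 arrays of the series. The 8 genes were chosen by name, as every spot assigned to ADH1 (YOL086C), ADH2 (YMR303C), ADH3 (YMR083W), ADH4 (YGL256W), ADH5 (YBR145W), SFA1 (YDL168W), ADH6 (YMR318C) or ADH7 (YCR105W), out of 6063 gene names on the arrays. The rule uses gene names only, though the genes were chosen with earlier results of these data known. All 8 genes were read on all 4 arrays.

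Each array set a test culture, labelled with Cy5, against a reference culture, labelled with Cy3. In E4, strain DY1457 grown in low zinc medium (LZM, in which a chelator buffers the metals) with 3 μM zinc was set against the same strain in LZM with 3 mM zinc. In E3, DY1457 carrying a plasmid with the Zap1TC allele was set against DY1457 carrying the empty vector pYEF2. Zap1TC is a form of the transcription factor Zap1 that zinc controls poorly. Both E3 cultures were grown in synthetic medium (SD) with galactose and 1 μM added zinc. The paper calls this medium zinc-replete, since SD lacks strong zinc chelators, so its added zinc cannot be compared directly with that of LZM. DY1457 is a laboratory strain of mating type alpha with the alleles ade6, can1, his3, leu2, trp1 and ura3, shared by all groups. The E4 cultures were grown overnight and the E3 cultures for about a day before harvest. The cells of E3 still had their own ZAP1 gene, and the allele on the plasmid was overexpressed from the galactose-inducible GAL1 promoter. Each experiment was done with 2 independent pairs of cultures, 1 array for each pair.

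Alcohol dehydrogenases convert aldehydes and alcohols into each other with NADH or NADPH. In fermenting yeast the cytosolic enzyme Adh1 reduces acetaldehyde to ethanol and so regenerates the NAD+ that glycolysis needs, Adh2 runs mainly in the other direction when ethanol is used as a carbon source, and Adh3 does the same chemistry in mitochondria. Adh1, Adh2, Adh3, Adh5, Sfa1, Adh6 and Adh7 belong to the zinc-containing medium-chain family, in which a catalytic zinc ion binds the substrate, and Adh1 is one of the most abundant zinc proteins of the cell. Adh4 is unrelated in sequence to the others and belongs to the family of iron-activated alcohol dehydrogenases. The paper calls it only potentially iron-dependent and allows that its cofactor may be zinc. ADH4 is a known target of activation by Zap1, and transcripts that Zap1 switches on upstream of ADH1 and ADH3 are known to hold these genes down when zinc is scarce.

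The arrays held from 10036 to 11303 spots and 5295 to 5934 genes each. The log2 ratios of the 2 arrays of an experiment had a Pearson's r of 0.940 over 5129 genes in E4 and of 0.944 over 5780 genes in E3, with genes not being independent replicates. ZRT1, the zinc uptake transporter that Zap1 activates, was higher in both experiments, with mean log2 ratios of 6.64 in E4 and 5.36 in E3. ZAP1 itself was higher too, by 1.53 in E4 and 6.65 in E3 on the log2 scale, and in E3 the array does not separate the chromosomal gene from the allele on the plasmid. The dyes had the same orientation on all 4 arrays, so that an effect of the dye on a gene and an effect of the condition cannot be told apart. The values below are log2 ratios of Cy5 over Cy3 after background correction and normalization within each array, and a gene was called where its adjusted p from limma was under 0.05.

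Under zinc limitation (E4), ADH2, ADH1 and ADH3 fell by 4.05-fold, 3.59-fold and 1.92-fold, ADH4 rose 16.6-fold, and the other 4 genes moved by 1.38-fold or less. limma called 5 of the 8 genes lower in 3 μM than in 3 mM zinc, against 25% of all 5129 genes tested, and 1 higher, against 25.9%. The study selected genes with increased expression when their mean ratio reached 1.5-fold and neither array was below 1.4-fold. Here the same rule, called the study's rule, is applied in both directions. This rule held downward for 3 of the 8 genes, against 1.93% of all genes, and upward for 1, against 4.64%. ADH2 is counted among the 3 here and in E3, although its spots may carry signal of ADH1 mRNA, as described below. The median log2 ratio was -0.38 over the 8 genes and 0.00 over all genes tested.

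In cells that expressed Zap1TC (E3), the same 3 genes were lower by the study's rule, against 5.35% of all 5780 genes tested, and ADH4 was again the 1 higher gene, against 7.01%. limma called 4 of the 8 genes lower in Zap1TC than in vector cells, against 29.4% of all genes, and 1 higher, against 29.4%. The median log2 ratio was -0.43 over the 8 genes and 0.00 over all genes. The rule was met downward in both experiments by 25 genes of the 4992 read on all 4 arrays (0.501%), and ADH1, ADH2 and ADH3 were among these 25. It was met upward in both by 77 genes (1.54%), ADH4 included.

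**Figure D1:**
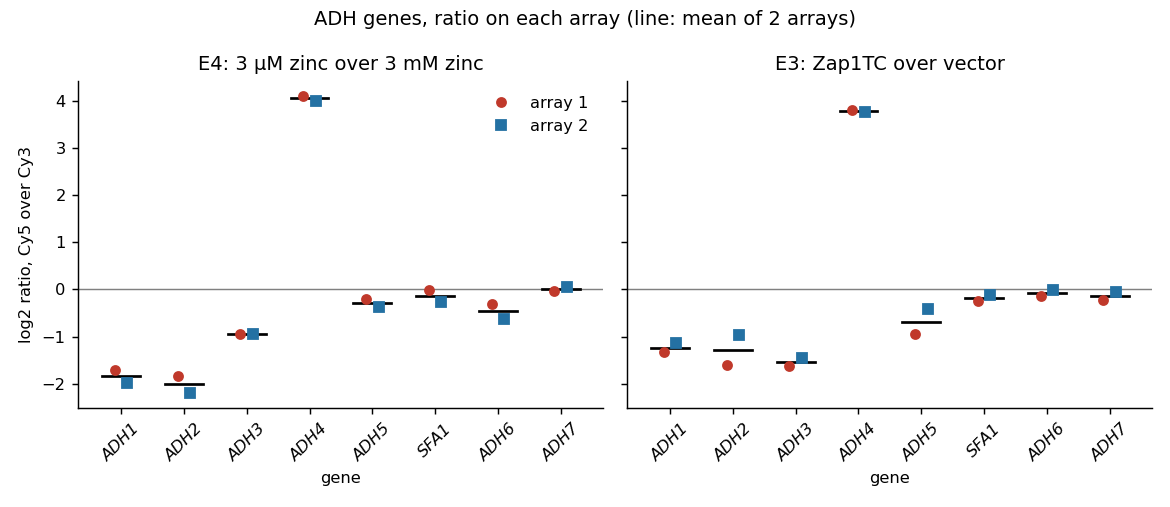
The log2 ratio of Cy5 over Cy3 of each of the 8 genes on each array (points) with the mean of 2 arrays (line), for 3 μM over 3 mM zinc (E4, left) and for Zap1TC over vector (E3, right). ADH4 lies between 3.75 and 4.10 on all 4 arrays, ADH1, ADH2 and ADH3 lie between -2.20 and -0.94, and the other 4 genes lie between -0.96 and 0.06.

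ADH1, the main fermentative enzyme, fell in both experiments. Its spots averaged 630 units of intensity in 3 μM zinc and 1927 in 3 mM zinc on array 1 of E4, and 976 and 3283 on array 2. In E3 they averaged 1245 in Zap1TC and 3254 in vector cells on array 1, and 916 and 1931 on array 2. These are mean spot intensities in scanner units before any correction, and on each array the test culture was the lower one. After normalization the log2 ratios were -1.70 and -1.98 in E4, a mean of -1.84 ± 0.20 (SD, n = 2) or a 3.59-fold lower level in 3 μM zinc (adjusted p from limma, 2.99e-08). In E3 they were -1.33 and -1.15, a mean of -1.24 ± 0.13 (SD, n = 2) or a 2.36-fold lower level in Zap1TC cells (adjusted p from limma, 5.06e-07). ADH1 was the 4th lowest of 5129 genes in E4 and the 21st lowest of 5780 in E3.

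ADH2, the enzyme of ethanol oxidation, moved with ADH1. Its spots read 274 in 3 μM and 891 in 3 mM zinc on array 1 of E4, and 346 and 1357 on array 2. In E3 they read 534 in Zap1TC and 1657 in vector cells on array 1, and 464 and 884 on array 2. The log2 ratios were -1.83 and -2.20 in E4 (mean -2.02 ± 0.26, SD, n = 2, 4.05-fold lower, adjusted p from limma 8.07e-07) and -1.61 and -0.97 in E3 (mean -1.29 ± 0.45, SD, n = 2, 2.45-fold lower, adjusted p from limma 1.17e-05). The 2 arrays of E3 lay further apart for ADH2 than for any other of the 8 genes, 3.05-fold lower on array 1 and 1.96-fold lower on array 2. ADH2 was the 3rd lowest gene in E4 and the 16th lowest in E3.

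The coding sequences of ADH1 and ADH2 are similar, and cDNA of the more abundant mRNA may bind the spots of the other gene. No sequences were compared here. Within an array, the log2 ratio of ADH1 minus that of ADH2 was 0.13 and 0.22 in E4 and 0.28 and -0.17 in E3. ADH2 was also the gene with the pattern most like that of ADH1 among the 4992 genes on all 4 arrays, at a Euclidean distance of 0.42 on the log2 scale over the 4 arrays. The next were BNA1, a gene of NAD+ synthesis, at 0.64 and LEU1, a gene of leucine synthesis, at 0.77, and both were also the next nearest to ADH2, at 0.94 and 1.03. How much of the signal on the ADH2 spots came from ADH1 mRNA was not tested, and the change of ADH2 is uncertain for that reason.

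ADH3, the mitochondrial enzyme, fell in both experiments as well. Its spots read 274 in 3 μM and 498 in 3 mM zinc on array 1 of E4, and 416 and 733 on array 2. In E3 they read 382 in Zap1TC and 1150 in vector cells on array 1, and 270 and 711 on array 2. The log2 ratios were -0.94 and -0.95 in E4, a 1.92-fold lower level in 3 μM zinc (mean -0.94, adjusted p from limma 1.52e-06), and -1.62 and -1.45 in E3, a 2.90-fold lower level in Zap1TC cells (mean -1.54 ± 0.12, SD, n = 2, adjusted p from limma 3.04e-08). It was the 26th lowest gene in E4 and the 6th lowest in E3. The genes nearest to it over the 4 arrays were MET14, of sulfate assimilation, at a distance of 0.33, ARO10, a decarboxylase of the fusel alcohol pathway, at 0.45, and MET16, also of sulfate assimilation, at 0.53.

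ADH4 rose in both experiments and was the largest change of the family on every array. Its spots read 3851 in 3 μM and 258 in 3 mM zinc on array 1 of E4, and 5962 and 391 on array 2. In E3 they read 3641 in Zap1TC and 281 in vector cells on array 1, and 2207 and 167 on array 2. On every array both test readings of ADH4 lay above both of its reference readings. The log2 ratios were 4.10 and 4.0 in E4, which is a 16.6-fold rise in 3 μM zinc (mean 4.05 ± 0.07, SD, n = 2, adjusted p from limma 6.25e-12), and 3.80 and 3.75 in E3, a 13.7-fold rise in Zap1TC cells (mean 3.78 ± 0.04, SD, n = 2, adjusted p from limma 1.47e-11). ADH4 was the 7th highest gene in E4 and the 6th highest in E3. Few genes lay close to it: the nearest were TIS11, an mRNA-binding protein of the iron response, at a distance of 2.38, ZRT3, the vacuolar zinc exporter, at 2.91, and HPF1, a cell wall mannoprotein, at 3.52. Within an array, the log2 ratio of ADH4 exceeded that of ADH1 by 5.81 and 5.98 in E4 and by 5.13 and 4.90 in E3.

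**Figure D2:**
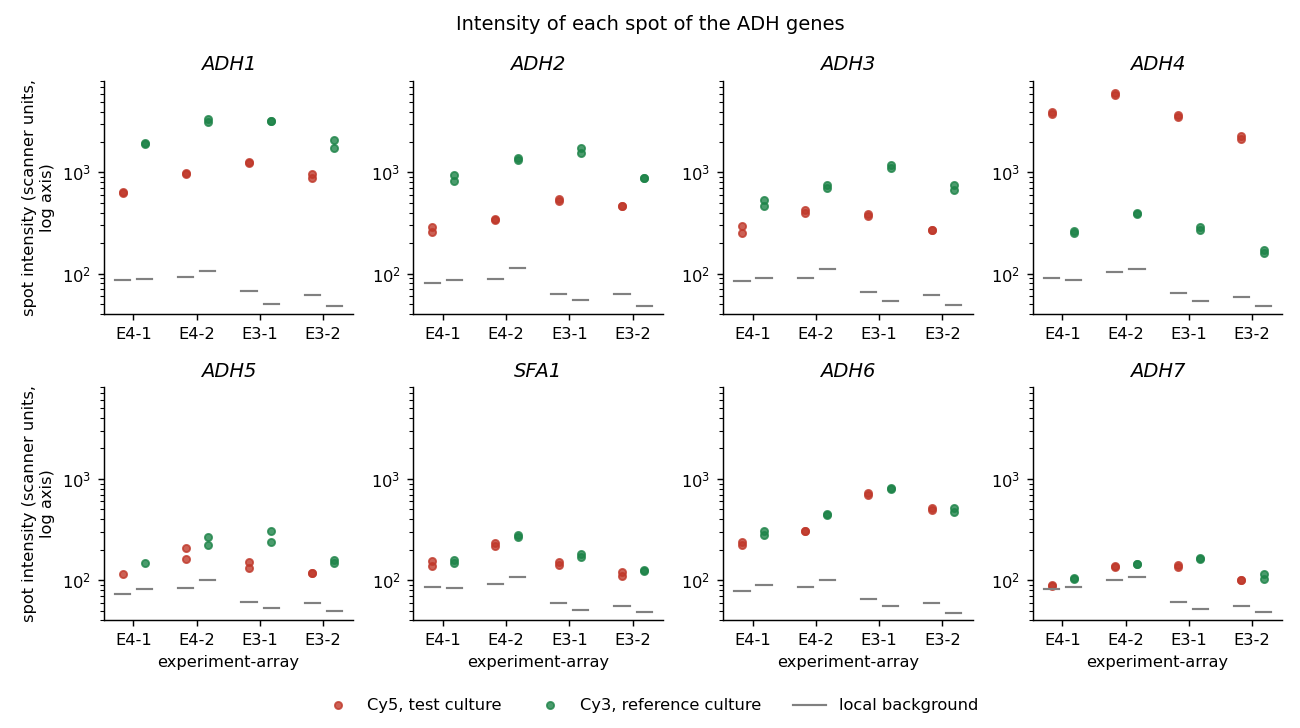
Mean intensity of each spot of the 8 genes in scanner units before any correction (log axis), by experiment and array, with Cy5 (test culture) left of Cy3 (reference culture) and the local background as grey lines. ADH4 is bright in Cy5 and dim in Cy3, and ADH1, ADH2 and ADH3 are lower in Cy5 than in Cy3. The Cy5 signal of ADH7 on array 1 of E4 (89.0 units on average) is at its background.

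ADH5, a further zinc-dependent enzyme close to Adh1 in sequence, had much smaller ratios. Its spots read 116 in 3 μM and 147 in 3 mM zinc on array 1 of E4, where 1 spot was read, and 185 and 242 on array 2. In E3 they read 141 in Zap1TC and 270 in vector cells on array 1, and 118 and 154 on array 2. The log2 ratios were -0.19 and -0.37 in E4 (mean -0.28 ± 0.12, SD, n = 2, 1.22-fold lower, adjusted p from limma 0.0443) and -0.96 and -0.42 in E3 (mean -0.69 ± 0.38, SD, n = 2, 1.61-fold lower, adjusted p from limma 0.000233). In E3 the fall was 1.94-fold on array 1 and 1.34-fold on array 2, so that ADH5 missed the 1.4-fold minimum of the study's rule on array 2. Without array 1, only the -0.42 of array 2 was left in E3. The E4 call was lost in 6 of 15 alternatives. Leaving out array 2 of E4 was among them, and only the -0.19 of array 1 was then left.

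ADH6, an NADPH-dependent enzyme that reduces cinnamyl and other bulky aldehydes, was lower in 3 μM zinc and was not called in Zap1TC cells. Its spots read 231 in 3 μM and 292 in 3 mM zinc on array 1 of E4, and 305 and 448 on array 2. The log2 ratios were -0.30 and -0.64, a mean of -0.47 ± 0.24 (SD, n = 2) or 1.38-fold lower (adjusted p from limma, 0.000963), below the size that the study's rule asks for. Without array 2 of E4, only the -0.30 of array 1 was left. In E3 the spots read 716 in Zap1TC and 804 in vector cells on array 1, and 504 and 497 on array 2. The ratio there was -0.08 ± 0.10 (SD, n = 2), with a 95% interval of -0.26 to 0.11 (adjusted p from limma, 0.447).

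SFA1, whose enzyme oxidizes the glutathione adduct of formaldehyde and also reduces fusel aldehydes, was called in neither experiment. Its log2 ratios were -0.01 and -0.28 in E4 (mean -0.14 ± 0.19, SD, n = 2, 95% interval -0.31 to 0.02, adjusted p from limma 0.134) and -0.24 and -0.12 in E3 (mean -0.18 ± 0.09, SD, n = 2, 95% interval -0.35 to -0.01, adjusted p from limma 0.0601). Its spots were dim, at 145 and 224 in 3 μM zinc against 154 and 273 in 3 mM zinc, and at 146 and 114 in Zap1TC cells against 174 and 124 in vector cells.

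ADH7, the close relative of ADH6, lay near its local background. Its spots read 89.0 and 137 in 3 μM zinc against 103 and 145 in 3 mM zinc, and 138 and 100 in Zap1TC cells against 163 and 108 in vector cells. On array 1 of E4 neither of its spots was well above background in Cy5, meaning more than 2.6 SD of the local backgrounds above them, while all other spots of the family were above background in both channels. Its log2 ratio was 0.01 ± 0.07 in E4 (95% interval -0.13 to 0.16, adjusted p from limma 0.889) and -0.14 ± 0.11 in E3 (95% interval -0.29 to 0.01, adjusted p from limma 0.0901; SD, n = 2 each). ADH7 was called lower in E3 in 3 of 15 alternatives, with log2 ratios of -0.16 without background correction and with the deposited values, and -0.20 with the lowest spot of each gene (adjusted p from limma, 0.0342 to 0.0392).

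The size of the changes was compared between the experiments by the contrast of E4 minus E3. It also takes in the differences of medium (LZM against SD with galactose) and growth time, and the plasmids carried by the E3 cells only. The paper does not state the carbon source of LZM, and any difference from galactose enters the contrast too. limma called 3 of the 8 genes lower in this contrast, against 21.7% of the 4992 genes tested, and 3 higher, against 26.8%. ADH1 fell more in E4 than in E3, with a difference of -0.61 on the log2 scale (95% interval -0.85 to -0.36, adjusted p from limma 0.0012), and ADH2 had -0.73 (-1.13 to -0.32, adjusted p 0.0072). ADH3 went the other way, with 0.59 (0.39 to 0.80, adjusted p from limma 0.000387), since its fall in E4 was the smaller one. Within the arrays, the log2 ratio of ADH1 minus that of ADH3 was -0.76 and -1.04 in E4 and 0.29 and 0.31 in E3, so that ADH1 fell more than ADH3 on both arrays of E4 and less than ADH3 on both arrays of E3.

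The remaining differences were smaller. ADH6 had -0.39 (adjusted p from limma, 0.0169), ADH5 had 0.41 (0.0421) and ADH4 had 0.27 (0.0259). The ADH4 difference lost its call in 7 of 14 alternatives, and with the log2 values as deposited it was 0.07 (adjusted p from limma, 0.444). That of ADH5 was lost in 4 alternatives and was 0.14 without array 1 of E3. That of ADH6 was lost in 3 alternatives and was -0.22 without array 2 of E4. The ADH2 difference was -1.04 without array 1 of E3 and -0.41 without its array 2, and it lost its call with plain background subtraction (adjusted p from limma, 0.0532). SFA1 (0.04, 95% interval -0.20 to 0.27) and ADH7 (0.15, -0.05 to 0.36) were not called.

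**Figure D3:**
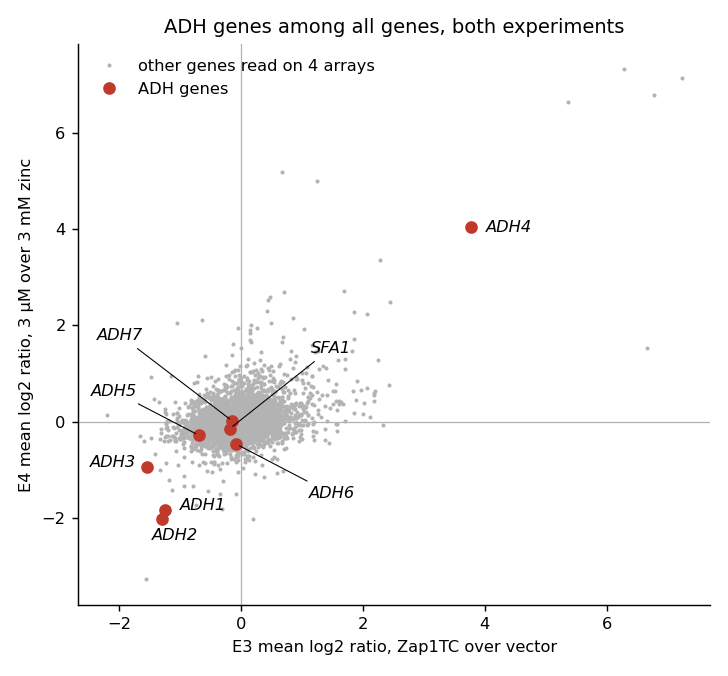
Mean log2 ratio of 3 μM over 3 mM zinc (E4, vertical axis) and of Zap1TC over vector (E3, horizontal axis) for the 4992 genes read on all 4 arrays (grey), with the 8 alcohol dehydrogenase genes in red. ADH4 (4.05 in E4, 3.78 in E3) lies far to the upper right, ADH1, ADH2 and ADH3 lie at the lower left, and ADH5, SFA1, ADH6 and ADH7 lie within the cloud.

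ADH4 lies on its chromosome in a run of genes that moved strongly. Among the 3 genes on either side of it, VEL1, of unknown function, had log2 ratios of 6.79 in E4 and 6.77 in E3, MNT2, a mannosyltransferase, had 2.24 and 2.06, and ZRT1, the next gene on the other side, had the values above. The paper lists the same predicted Zap1 binding sequences upstream of VEL1 and of YOR387C, a gene on another chromosome. Whether the VEL1 spots also carry signal of YOR387C mRNA was not tested. FZF1, the regulator of sulfite export that follows ZRT1, was lower, at -0.90 in E4 and -0.69 in E3 (adjusted p from limma 1.52e-06 and 5.77e-06). No other member had more than 1 neighbour that met the study's rule, with its 1.5-fold mean, on the E3 arrays, and on the E4 arrays only ADH6 did. Next to ADH6 lies FET4, a transporter of iron, copper and zinc, which was higher by 1.46 in E4 and 0.81 in E3. After it lies YMR320W, which was higher by 0.71 in E4 and 0.61 in E3. Near ADH3, ISF1, a gene linked to mitochondrial function, was higher by 1.13 in E4 and 1.09 in E3, while ADH3 itself fell. At least 1.4-fold on both arrays of E3 but under a 1.5-fold mean were UBP15 and SCW10 near ADH2, at 0.08 and 0.09 in E4 (neither called) and 0.57 and 0.58 in E3, and SEG1 near ADH3, at -0.08 in E4 (not called) and 0.55 in E3. PHM7, near ADH1, was higher by 1.30 in E3 and was not read on both arrays of E4. On the lower side were MRPS9 near ADH5 (-0.60 in E4 and -0.45 in E3) and RDS1 near ADH7 (-0.47 in E4 and -0.74 in E3). NRP1 near SFA1 was lower in E3 (-0.90) and was at -0.06 in E4 (not called). In all, 12 of 29 neighbours tested in E4 were called higher and 4 lower, against 25.9% and 25% of all genes, and 20 of 41 in E3 were called higher and 11 lower, against 29.4% of all genes each way. The medians were 0.14 in E4 and 0.16 in E3, against 0.00 over all genes in both.

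Genes of the pathways around the alcohol dehydrogenases are counted below against all genes tested, of which 25.9% were called higher and 25% lower in E4, and 29.4% each way in E3, with medians of 0.00. Of the 12 genes of acetaldehyde, acetate and ethanol metabolism, which include acetyl-CoA synthetases and alcohol acetyltransferases, 10 could be tested in each experiment. In E4, 2 of the 10 were called higher and 3 lower (median -0.01), and in E3, 4 were higher and 3 lower (median 0.06). ALD2 and ALD3, cytosolic aldehyde dehydrogenases, were higher in both experiments, at 0.60 and 0.87 in E4 and 0.81 and 1.00 in E3. These 2 genes are closely related and their spots may share signal. PDC5, a pyruvate decarboxylase that makes acetaldehyde, was lower in E4 (-0.38, adjusted p from limma 0.00117) and higher in E3 (1.38, adjusted p 9.75e-08). ALD5, a mitochondrial aldehyde dehydrogenase, was lower in E3 (-1.18) and was at 0.01 in E4 (adjusted p from limma, 0.946).

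Genes that regenerate NAD+ by other routes were called in both directions. GPD1, the first enzyme of glycerol synthesis, was lower in both experiments, at -0.84 in E4 and -0.44 in E3, and GPD2, its isoform, was at 0.25 in E4 and -0.34 in E3. NDE1 and NDE2, the NADH dehydrogenases on the outside of the inner mitochondrial membrane, were higher in E3, by 0.73 and 0.59, and in E4 NDE1 was at -0.13 (adjusted p from limma, 0.131) and NDE2 was not read on both arrays. Of the 5 genes of this list, 4 were tested in each experiment, with 2 higher and 1 lower in E4 and 2 higher and 2 lower in E3 (medians 0.06 and 0.12).

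Other medium-chain dehydrogenases and reductases, some of which hold no zinc, were also called in both directions. Of 7 such genes, 5 were tested in E4, with 2 higher and 2 lower (median 0.15), and 6 in E3, with 4 higher and 1 lower (median 0.60). XYL2, xylitol dehydrogenase, had 0.17 in E4 and 2.01 in E3, and SOR1 and SOR2, near-identical sorbitol dehydrogenases, were lower in E4 (-0.40 and -0.36) and higher in E3 (0.95 and 1.00). BDH1, butanediol dehydrogenase, fell in E3 (-1.24) and was at 0.15 in E4 (adjusted p from limma, 0.24).

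All 6 genes of the fusel alcohol and formaldehyde routes, which supply aldehydes to several members or act next to Sfa1, were tested. Of these, 3 were higher and 3 lower in E4, and 2 were higher and 3 lower in E3 (medians -0.06 and -0.27). ARO10 fell in both experiments (-0.67 in E4 and -1.41 in E3), as did BAT1, the mitochondrial branched-chain aminotransferase (-1.14 and -0.93), whereas BAT2, its cytosolic counterpart, rose (0.45 and 0.54). ARO9, an aromatic aminotransferase, was higher in E4 (0.68) and lower in E3 (-0.57).

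Of 8 known regulators of ADH1 and ADH2 transcription, 6 were tested in E4, where 1 was called, SNF1, the kinase needed for ADH2 derepression, which was lower (-0.45, adjusted p from limma 0.000222; median of the 6, 0.02). In E3, 7 were tested and 3 were called higher, against 29.4% of all genes. They were GCR1, an activator of glycolytic genes, which also met the study's rule at 0.64, ADR1, the activator of ADH2, at 0.26, and REG1, a regulatory subunit of the phosphatase that opposes Snf1, at 0.26 (median of the 7, 0.15). On these arrays the mRNA of a regulator was measured, not its activity.

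ADH1, ADH2, ADH3 and ADH4 kept their direction and their call under all 15 alternatives in each experiment. Several of these could change the p but not the ratio, and so do not test the direction. They are the replicate block, the intensity trend, leaving out dim genes, an experiment alone, and leaving out an array of the other experiment. Over the 15 alternatives, the log2 ratio of ADH1 ranged from -1.99 to -1.70 in E4 and from -1.46 to -1.15 in E3, that of ADH2 from -2.24 to -1.83 and from -1.61 to -0.97, and that of ADH3 from -1.08 to -0.84 and from -1.69 to -1.28. That of ADH4 ranged from 3.73 to 4.29 in E4 and from 3.62 to 4.14 in E3. The 2 spots of a gene lay within 0.30 of each other on the log2 scale in the 31 of 32 cases where both were read.

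**Figure D4:**
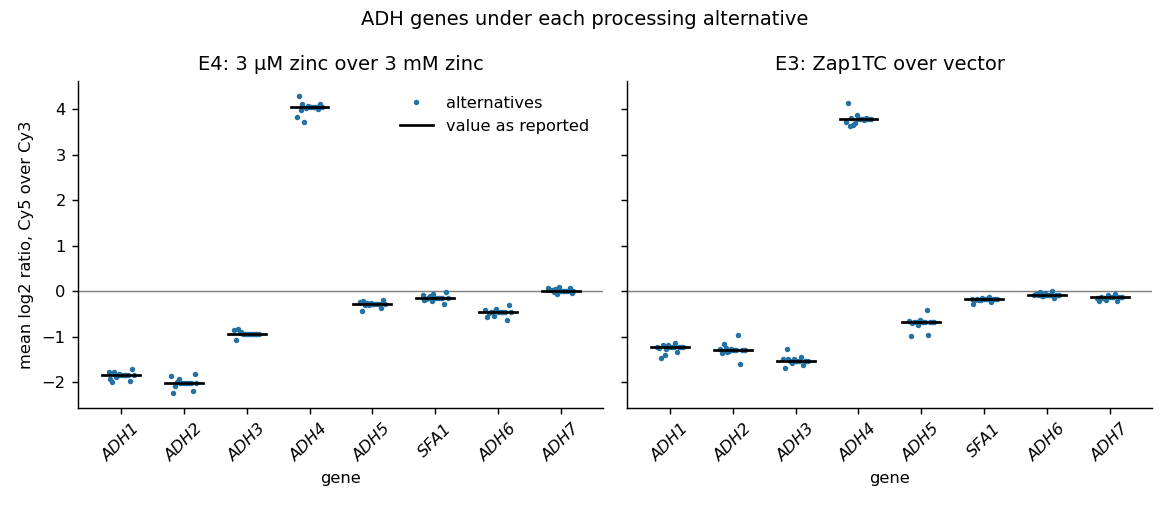
Mean log2 ratio of each of the 8 genes as reported (line) and under each alternative way of processing the arrays (points), for 3 μM over 3 mM zinc (E4, left) and Zap1TC over vector (E3, right). No alternative brings ADH1, ADH2, ADH3 or ADH4 to 0, while ADH7 in E4 lies on both sides of it (-0.07 to 0.09).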

How the data were processed

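mRNA from DY1457 cultures was hybridized to spotted 2-colour whole-genome arrays, 2 per experiment. The deposited scanner tables hold mean and local background intensity per spot and channel, unnormalized, for spots with a flag of 0. They also hold a ratio of Cy5 to scaled Cy3 that the authors computed, not used here. The value table gives the authors' log2 ratios (Cy5 divided by Cy3), normalized by LOWESS within each slide. Its column medians are -0.0211, -0.0208, -0.0201 and -0.0182, and it was used as an alternative. The scanner, its software and the genome build behind the probes are not given in the sources used here. Precision is limited by the number of arrays.

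Background was removed by normexp (offset 50), each array was normalized by loess (span 0.3), and the log2 ratios of a gene's spots were averaged. limma 3.58.1 in R 4.3.3 was fitted to all genes with 1 coefficient per experiment over the 4 arrays, with empirical Bayes moderation, two-sided tests and Benjamini-Hochberg adjustment over all genes read on both arrays of an experiment, or on all 4 arrays for the contrast, at 0.05. The code of the fit was tried on simulated arrays with known changes, and no call made here rests on that. Groups, dyes and replicates came from the labels, and group means of 2 arrays carry the spread between independent cultures. The genes and lists were chosen with earlier results of these data known. Named beside the 8 genes are list members and neighbours (3 on either side) past the test with at least 1.4-fold on both arrays, examples that did not pass, and, for members changed at least 2-fold, the 3 genes nearest by Euclidean distance over the 4 arrays. SNF1, ADR1, REG1, GPD2, BDH1 in E4 and SOR1 and SOR2 in E4 were named after their values were seen. Of the 6063 gene names, 5538 matched the reference gene table of assembly R64, which also gave the neighbours.

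Alternatives were no background correction, plain subtraction, loess within print-tip blocks, median centring, the deposited log2 values, the lowest or highest spot, leaving out dim genes, leaving out each array, a block for the replicate number, a robust prior with an intensity trend, and each experiment alone. Leaving out an array left a single array in its experiment, and the spread in the fit then came from the other experiment only. Calls and counts for that experiment and for the contrast carry this limit. The authors' fold rule used means of at least 1.5-fold, and its use for lower genes is an extension made here.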

Additional observations from a re-analysis of the deposited data

How the results depend on the processing

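Over the 24 log2 ratios and differences of single genes, 352 alternatives were run: 314 kept direction and side of the threshold, 21 lost the call, 11 gained one and 6 changed sign. The 352 include alternatives that could change the p of a ratio but not the ratio itself. The changes of sign were those of ADH7 in E4 (-0.027 with median centring, -0.069 with the lowest spot, -0.034 to 0.058 leaving out each array) and of the SFA1 difference (-0.021 with the lowest spot, -0.098 to 0.171 leaving out each array), all near 0 and uncalled; the cause was not tested. ADH5 in E4 lost its call without background correction (adjusted p from limma, 0.0545), with plain subtraction (0.0897), print-tip loess (0.135), deposited values (0.0611) and an intensity trend (0.112). SFA1 gained a call in E3 without background correction (0.031), with deposited values (0.0381) with an intensity trend (0.0378), and with the E3 arrays alone or either E4 array left out (0.0316 each). SFA1 also gained one in E4 without array 1, where only array 2 was left. The ADH7 difference gained one without background correction (0.0439). ADH7 in E3 gained one without background correction (0.0342), with deposited values (0.0356) and with the lowest spot (0.0392). Plain subtraction left 1 of the 8 genes lower and 1 higher in the contrast, and an intensity trend left 1 higher. Leaving out each array gave 1 to 3 higher and 2 to 3 lower in the contrast. Over all genes, leaving out each array gave 1061 to 1728 called higher in E3, lowest without array 1, and 760 to 1377 called lower in E4, lowest without its array 1. By the study's rule, plain subtraction gave 386 lower and 536 higher in E4 and 796 lower and 816 higher in E3, against 99, 238, 309 and 405. In E4, no background correction gave 62 lower and deposited values 157 higher. The replicate numbers did not pair the arrays (correlation of deviations -0.074 over 4992 genes), and a fit with the replicate number as a block changed no call of the 8 genes; in it ADH1 was at -1.84 in E4 (adjusted p from limma, 3.03e-13), and 1295 genes were called higher and 1233 lower in E4. The search for zinc-responsive elements and the protein alignment were not run. Dim spots limit ADH5, SFA1 and ADH7.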
